A study of Mus musculus with 6 samples.

Results

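The genes described here encode the machinery that docks secretory vesicles and fuses them with the plasma membrane: the SNARE proteins Vamp2, Snap25 and Stx1a, the ATPase Nsf, the chaperone Dnajc5, the priming factor Cadps, and the synaptotagmins Syt1, Syt4 and Syt11. They were taken by name, as every probe set that the platform annotation assigns to these 9 symbols. All 9 were on the array, with 11 probe sets, out of 8251 genes that had a probe set with a single symbol. The samples were adrenal glands of chromogranin A (Chga) knockout mice (3 arrays) and of wild-type mice (3 arrays), all male and 12 weeks old. Each array was read as 1 animal, since the series describes 3 mice per genotype. The labels cite the same earlier study for the mice of both groups. The labels used here state neither the genetic background nor the deleted part of Chga.

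In a chromaffin cell, the catecholamine-secreting cell of the adrenal medulla, hormone is stored in dense-core granules together with chromogranin A. Fusion of a granule is driven by a bundle of helices formed by Vamp2 on the granule with Snap25 and syntaxin 1 on the plasma membrane. Synaptotagmins sense the calcium that enters during stimulation, and Nsf pulls the spent SNARE bundles apart so that they can be used again. Many of these genes are also active in neurons, and relatives of them serve constitutive trafficking in every cell.

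The glands were measured whole, so a difference can come from fewer cells of a type or from less RNA per cell, and these cannot be told apart. Signals are array intensities made by the authors with MAS5 and scaled to the same trimmed mean on each array, and the array medians lay between 953 and 1092. Chga itself was 36.6-fold lower in the knockout on its brighter probe set (limma adjusted p = 5.29e-06), from 37413 ± 8452 to 999 ± 170 (SD, n = 3 each). For the Gapdh control, the signal at the 3' end divided by that at the 5' end, which varies with RNA or cRNA integrity, was 0.831 for knockout array 1, 1.30 for array 2 and 1.29 for array 3, and 0.762 to 0.806 for wild type. The 13 skeletal muscle markers summed to a signal of 11645, 87814 and 43867 on those 3 arrays in the same order, and to 11316 to 12475 in wild type. Knockout arrays 2 and 3 stood apart from the other 4 arrays on both measures. Acta1 was the brightest muscle marker there, at 32131 and 13869. Of 8 muscle markers tested, 6 had higher values in the knockout and 2 lower, and none passed the limma threshold. Of all 5663 named genes, 2813 had higher values. The lower markers were Ckm (means of 655 in knockout and 739 in wild type) and Myh4 (1006 and 1042). Myh2 was not tested and was also lower (49.5 and 126).

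The labelled tissue was borne out by its defining markers. Of 15 chromaffin markers listed, 11 were on the array, and they summed to 215362 to 231795 on the knockout and 183364 to 202299 on the wild-type arrays, without overlap. Most of that difference lay in the granin Chgb, and without it the sums were 111596 to 124628 and 107105 to 132994, which overlapped. Of 10 chromaffin markers tested, 9 had higher values in the knockout and 1 lower, with a median log2 change of 0.19. None passed the limma threshold, and 2813 of all 5663 named genes had higher values. The lower one was Pnmt, the brightest after Chgb, with means of 36439 in knockout and 42136 in wild-type glands. The dimmest of the 11 was the transcription factor gene Hand2, with a mean signal of 578. Hand2 was too dim to be tested, and without a detection call its signal does not show expression. The 9 cortex markers on the array summed to 584899 to 663257 in knockout and 549891 to 667238 in wild-type glands. All 9 were tested, 6 had higher values in the knockout and 3 lower, and none passed the limma threshold. The dimmest, Nr0b1, was lower without overlap, as 8.83% of all tested probe sets were. Its means were 1781 in knockout and 3127 in wild-type glands (limma adjusted p = 0.320). Sums for knockout and wild type were 24499 to 44936 and 20850.4 to 25289 for 12 macrophage markers, 41235 to 69588 and 30605 to 58337 for 6 adipocyte markers, 11250.4 to 15533 and 12675 to 16594 for 6 Schwann cell markers, and 1280.3 to 4036 and 1325 to 1911 for 5 liver markers. For macrophages, adipocytes and liver the groups overlapped through knockout array 1, and knockout arrays 2 and 3 lay above every wild-type array. Their sums were 44936 and 37688 for macrophages, 69588 and 61744 for adipocytes and 4036 and 3558 for liver. Adipoq was the brightest adipocyte marker on those 2 arrays, at 32112 and 31932. All 6 adipocyte markers were tested, and 5 had higher values in the knockout and 1, Retn, lower. Means in knockout and wild type were 2960 and 4532 for Retn, and similar for Fabp4 (3478 and 3444). None of the 6 passed the limma threshold. Most of the liver sum on those 2 arrays was Alb, at 2909 and 2811. Mean signals in knockout and wild type were 167 and 220 for Apoa1 and 141 and 291 for Tat, both lower in the knockout. Ttr was higher (485 and 292), and Fgb was similar (91.1 and 84.7).

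None of the exocytosis genes passed the test between the genotypes. Probe sets with a mean signal under about 582 were left out of the test as dim, which kept 7 of the 11 probe sets, standing for 6 of the 9 genes. In limma 0 of these 7 passed an adjusted p of 0.05, where 33 of all 7453 probe sets did (0.443%). At an unadjusted p under 0.05 there were 3 of the 7, Dnajc5, Vamp2 and Snap25, against 11.3% of all probe sets. In the same 3, all knockout arrays lay on one side of all wild-type arrays, which held for 16.4% of all probe sets tested. Vamp2 and Snap25 were on the higher side (7.55% of all) and Dnajc5 on the lower side (8.83% of all). Since the genes were chosen with earlier results of these data known, these shares are descriptions.

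**Figure D1:**
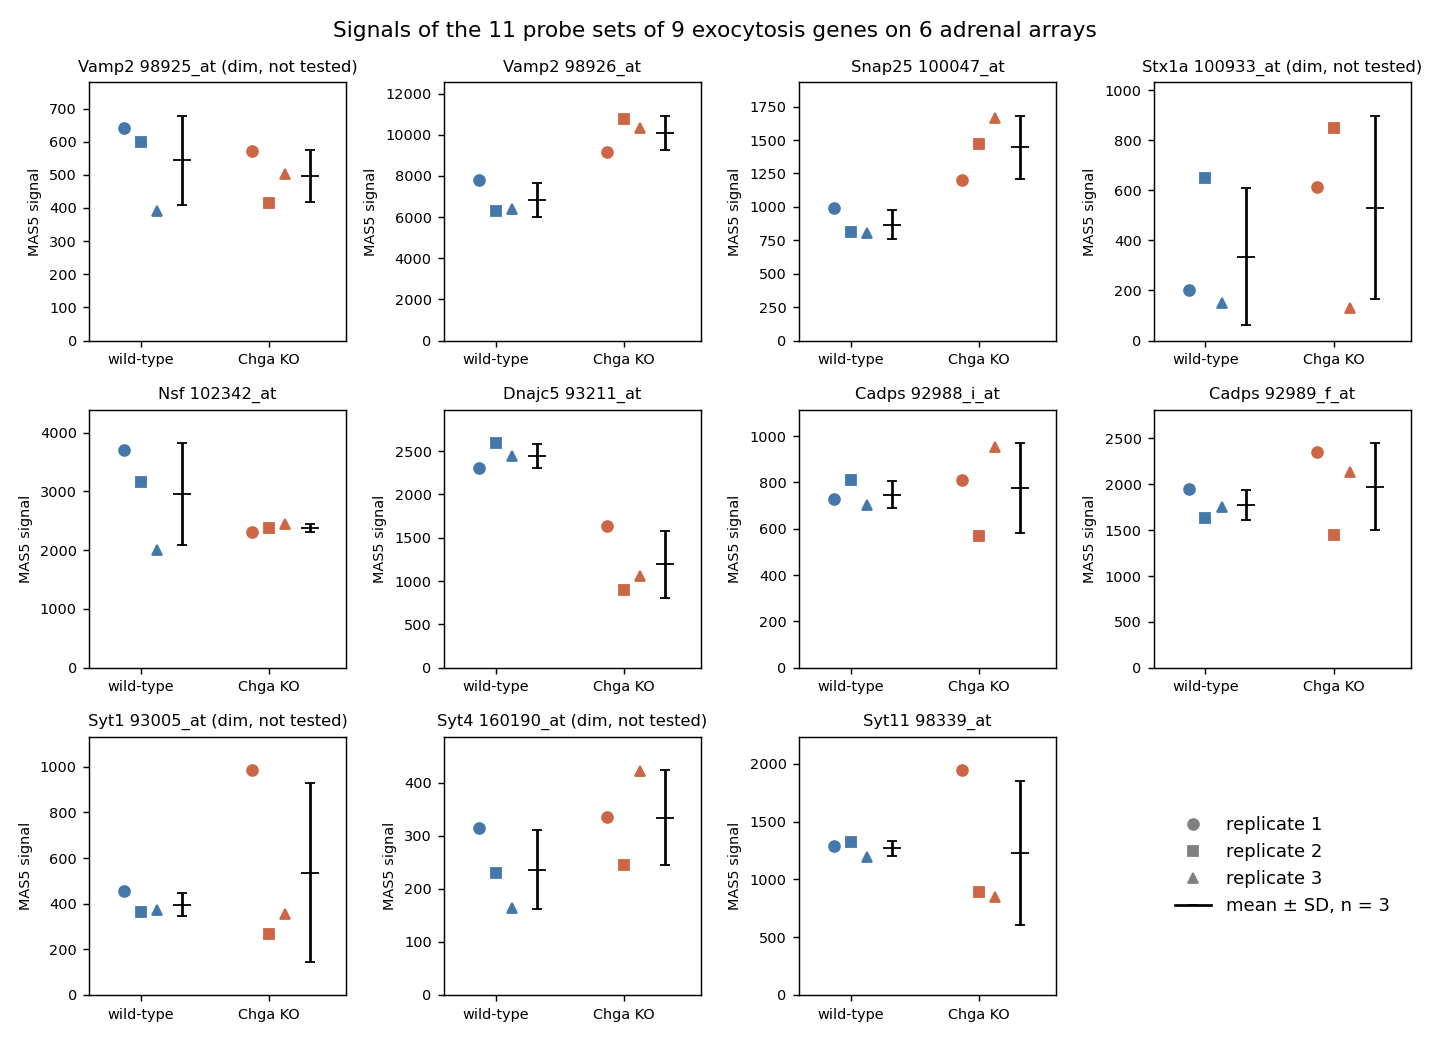
MAS5 signal of each of the 11 probe sets on the 3 wild-type (blue) and 3 Chga knockout (orange) arrays, with each vertical axis starting at 0; marker shape gives the replicate, and bars give the mean ± SD (n = 3). The groups are apart for Vamp2 98926_at and Snap25 100047_at, higher in the knockout, and for Dnajc5 93211_at, lower in the knockout, and they overlap in the other 8.

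Among the SNARE proteins, the vesicle partner Vamp2 (synaptobrevin 2) had the brighter of its 2 probe sets, 98926_at, at 9170.2, 10767 and 10331 in the knockout and at 7787, 6277 and 6403 in wild type (arrays 1, 2 and 3 in order, here and in all values that follow). All 3 knockout arrays were above all 3 wild-type arrays. The mean was 10089 ± 825 in knockout and 6823 ± 838 in wild-type glands (SD, n = 3), a value 1.48-fold higher. The log2 change was 0.57 ± 0.14 (SE), with a 95% interval of 0.24 to 0.89, and it did not pass over all probe sets (limma adjusted p = 0.206). It ranked 119 of 7453 by p.

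The second Vamp2 probe set, 98925_at, was dim and was not tested. It read 572, 414 and 503 in the knockout and 641, 599 and 391 in wild type, and the groups overlapped. Its log2 difference was -0.11, opposite in sign to the brighter probe set. The sign was not stable: the difference was 0.18 when adjusted for the Gapdh ratio, 0.10 with the sole knockout array 1, 0.012 without knockout array 2 and 0.023 without wild-type array 1.

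Snap25, the plasma membrane SNARE that gives the bundle a pair of helices, read 1199.7, 1470.1 and 1667 in the knockout. Wild-type glands gave 989, 813 and 802, all lower. Means were 1446 ± 235 and 868 ± 105 (SD, n = 3), a value 1.65-fold higher in the knockout. The log2 change of 0.72 ± 0.23 (SE) had a 95% interval of 0.20 to 1.23 and did not pass (adjusted p = 0.320).

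Stx1a, the syntaxin that completes the bundle, was dim and was not tested. Its signals scattered within both groups, at 613, 848 and 129.8 in knockout and 201, 648 and 151 in wild-type glands. The lowest and the highest of the 6 arrays were both knockout arrays, and the groups overlapped.

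Dnajc5 had the smallest p of the set. It encodes cysteine string protein, a vesicle-bound co-chaperone that keeps Snap25 folded. Signals of 1632, 891 and 1059 in the knockout stood against 2310.2, 2591 and 2439 in wild type, without overlap. The mean was 1194 ± 388 in knockout and 2447 ± 141 in wild-type glands (SD, n = 3), a value 2.10-fold lower. The log2 change was -1.07 ± 0.24 (SE), with a 95% interval of -1.61 to -0.53, and it ranked 76 of 7453 by p but did not pass (adjusted p = 0.153).

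The Dnajc5 result depended on which knockout arrays were used. Knockout array 1, which had the lowest Gapdh ratio and the lowest muscle sum of the 3 knockout arrays, lay nearest to wild type. Without it the log2 change was -1.32 and passed (limma adjusted p = 0.0192). In that fit 141 of all 7453 probe sets passed, against 33 with all arrays. When knockout array 1 was the sole knockout array kept, the log2 change of Dnajc5 was -0.58. In a fit over all arrays that adjusted for the Gapdh ratio, the log2 change of Dnajc5 was -0.48 (limma adjusted p = 0.998). The ratio was higher on every knockout array than on every wild-type array, so this fit cannot separate the ratio from genotype. It rests largely on knockout array 1 and is not a separate check. Vamp2 and Snap25 had log2 changes of 0.40 and 0.42 when adjusted for the Gapdh ratio, and of 0.43 and 0.47 with the sole knockout array 1, none past the threshold.

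**Figure D2:**
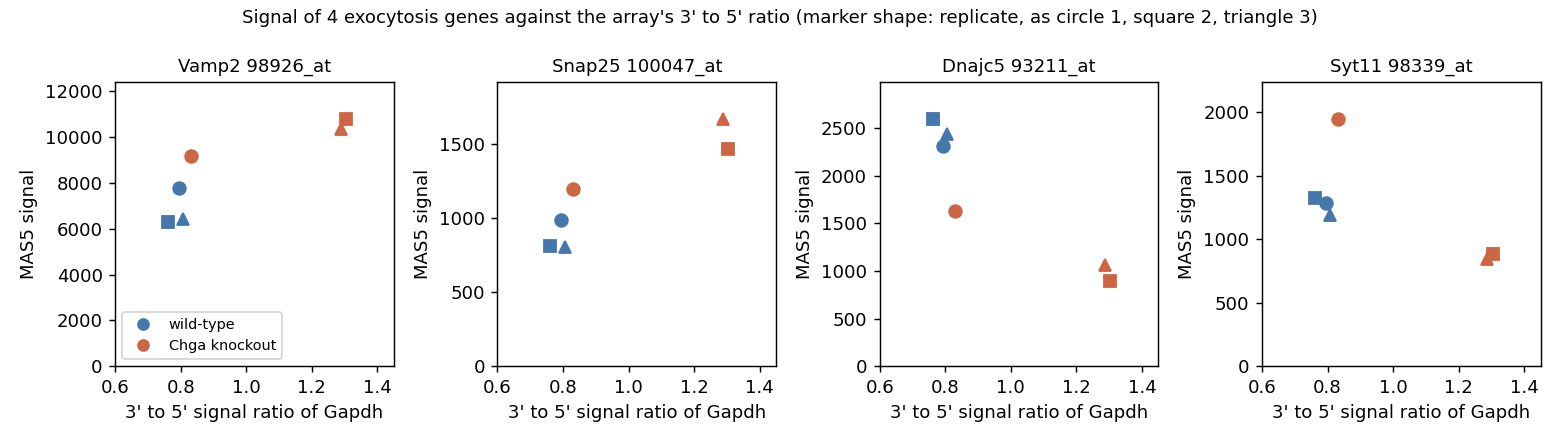
MAS5 signal (vertical axis, from 0) of Vamp2, Snap25, Dnajc5 and Syt11 against the Gapdh signal ratio (3' end over 5' end) of the same array, for wild-type (blue) and Chga knockout (orange) arrays. Knockout arrays 2 and 3 lie at ratios of 1.30 and 1.29, and knockout array 1, at 0.831, lies between them and the wild-type arrays for the signals of Vamp2, Snap25 and Dnajc5 and above all other arrays for Syt11.

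Nsf, the ATPase that takes SNARE bundles apart after fusion, read 2315, 2380.5 and 2441 in knockout glands, a narrow range. The wild-type arrays ranged wider, with 3696, 3164 and 2007, and enclosed the knockout values. The log2 change was -0.27 with a 95% interval of -0.78 to 0.25 (adjusted p = 0.693).

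Cadps, which primes dense-core granules for release, had 2 probe sets, and neither passed. The brighter, 92989_f_at, read 2352, 1442 and 2129 in knockout and 1951, 1630.1 and 1748 in wild-type glands, with a log2 change of 0.13 (95% interval -0.37 to 0.62, adjusted p = 0.865). The other, 92988_i_at, gave 808, 567 and 951 against 729.7, 811 and 701, with a log2 change of 0.024 (95% interval -0.62 to 0.67, adjusted p = 0.982). In both, knockout array 2 was the lowest of the 6 arrays, and the groups overlapped. The suffixes mark probe sets built under relaxed rules, with probes shared by a sequence family (f) or with too few unique probes (i). Other transcripts may therefore add to these signals. The f suffix also marks the probe sets read here for Chgb (92841_f_at) and Scamp1 (162426_f_at), so the same limit holds for their signals.

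Of the 3 synaptotagmins, only Syt11 was bright enough to test. It is a family member with little or no calcium binding of its own that takes part in membrane trafficking. Its signals were 1945, 888 and 846 in knockout and 1287, 1322 and 1195 in wild-type glands. Knockout array 1 was above every wild-type array and knockout arrays 2 and 3 below every one. The SD was 623 in the knockout and 65.5 in wild-type glands (n = 3 each). The log2 change was -0.16 (95% interval -0.88 to 0.57, adjusted p = 0.888). It was 0.61 with the sole knockout array 1 and 0.75 when adjusted for the Gapdh ratio, neither past the threshold. Its sign also turned without knockout array 2 (0.019) and without knockout array 3 (0.053).

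Syt1, the calcium sensor of fast release, was dim and was not tested. Its signal was 985 on knockout array 1 but 265 and 357 on the others, beside 454, 362 and 371 in wild-type glands. As for Syt11, knockout array 1 was the highest of the 6. Syt4, a relative of Syt11 with a similarly altered calcium-binding domain, was also dim, at 336, 244 and 423 in knockout and 314, 230.4 and 165 in wild-type glands. Its groups overlapped. Detection calls were not used here, so a dim signal does not show that a transcript was absent.

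The wider machinery had no gene past the threshold either. A list of 101 other exocytosis and SNARE trafficking genes had 57 on the array and 42 bright enough to test, each by its brightest tested probe set. In limma 0 of the 42 passed in either direction, where 22 of 5663 named genes passed (0.388%), and 3 had an unadjusted p under 0.05, against 10.7% of named genes. The median log2 change of the 42 was -0.020, with 19 values higher and 23 lower, and that of all 5663 named genes was -0.0026. For the 6 tested genes of the 9, by brightest tested probe set, the median was -0.015, with 3 values higher and 3 lower.

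**Figure D3:**
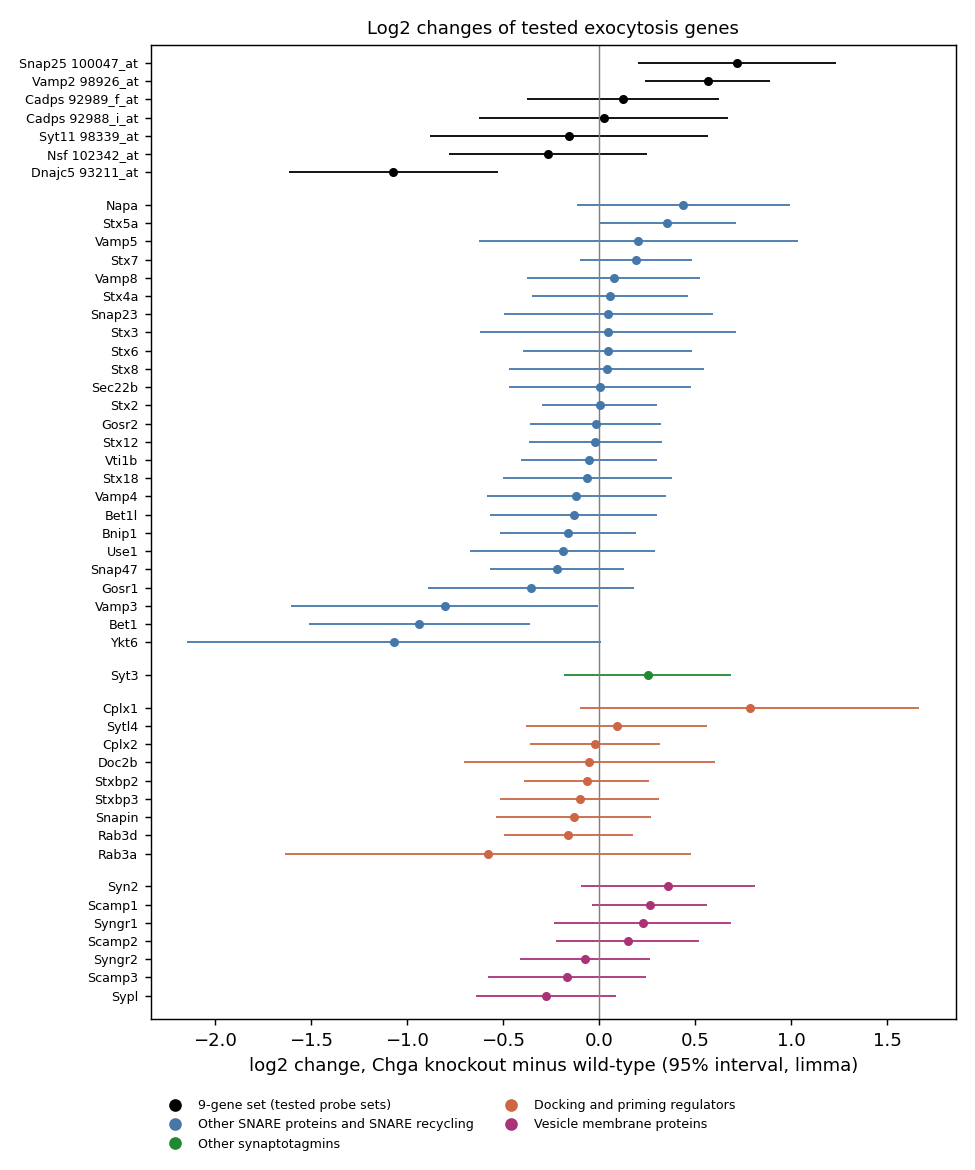
Log2 change (knockout minus wild-type, points) with its 95% interval from limma (bars) for the 7 tested probe sets of the 9 genes and for the 42 other tested exocytosis genes, coloured by role. Most intervals include 0; among the 9 genes, those of Snap25 and Vamp2 lie above 0 and that of Dnajc5 below it, and none passed after adjustment over all probe sets.

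Of the 25 other SNARE and SNARE recycling genes tested, 0 passed, and 12 values were higher and 13 lower. Bet1, a SNARE of transport from endoplasmic reticulum to Golgi, had the smallest p. It read 1024, 596 and 753 in knockout and 1489, 1388 and 1604 in wild-type glands, without overlap (log2 change -0.94, adjusted p = 0.239). For Stx5a, the Golgi syntaxin, all knockout arrays lay above the wild-type arrays, with a log2 change of 0.36 (adjusted p = 0.439). Ykt6, a lipid-anchored SNARE of Golgi and endosome traffic, had one of -1.07 (adjusted p = 0.445), with knockout array 1 at 1213 inside the wild-type range and the other 2 below it.

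Vamp3, the ubiquitous relative of Vamp2, read 3613, 1624 and 1238 in knockout and 4164, 3239 and 2902 in wild-type glands. Its groups overlapped through knockout array 1, and its log2 change was -0.80 (adjusted p = 0.439). Without knockout array 1 it was -1.25 and passed (limma adjusted p = 0.0343), as 141 of all 7453 probe sets did in that fit. With the sole knockout array 1 the log2 change of Vamp3 was 0.089. Knockout array 1 was thus nearest to wild type for Vamp3, Ykt6 and Bet1, as it was for Dnajc5. For Bet1 and Dnajc5 it still lay below every wild-type array. On knockout arrays 2 and 3 the Gapdh ratio and the muscle, macrophage, adipocyte and liver marker sums were highest. Their parts in these values cannot be told apart. Of the macrophage markers 10 were tested, and all 10 had higher values in the knockout (median log2 change 0.67), where 2813 of all 5663 named genes did. None passed the limma threshold, and 5 had an unadjusted p under 0.05, against 10.7% of named genes. Adjusted for the Gapdh ratio, the log2 change was 0.23 for Vamp3, 0.23 for Ykt6 and -0.48 for Bet1, none past the threshold. That fit cannot separate the ratio from genotype. The part of RNA integrity or of the other cell types' RNA was not tested. Napa, the adaptor that brings Nsf to SNARE bundles, was named after its values were seen. It read 10795, 5463 and 9840 in knockout and 6901, 6144 and 5475 in wild-type glands, and the groups overlapped. Its log2 change was 0.44 (limma adjusted p = 0.528). The related gene Napb, also named after its values were seen, was dim and was not tested. It read 701, 659 and 608 in knockout and 279, 468 and 455 in wild-type glands, without overlap. Of all tested probe sets, 7.55% lay apart on the higher side.

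Of 9 other synaptotagmins on the array, 8 were dim, with mean signals of 33.3 to 582, and were not tested. The other, Syt3, had a log2 change of 0.25 (adjusted p = 0.659). Docking and priming regulators gave 0 of 9 past the threshold. Cplx1, a complexin that clamps the SNARE bundle, read 529.7, 1380.4 and 1425 in knockout and 574, 589 and 585 in wild-type glands (log2 change 0.78, adjusted p = 0.487). Knockout arrays 2 and 3 were high and knockout array 1 was the lowest of all 6. Adjusted for the Gapdh ratio, the log2 change of Cplx1 was -0.28 (adjusted p = 0.998).

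Rab3a, the vesicle GTPase of regulated release, differed by -0.58 on the log2 scale (adjusted p = 0.679), and Rab3d, its relative of secretory glands, by -0.16 (adjusted p = 0.722). Snapin, which binds Snap25, had a log2 change of -0.13 (adjusted p = 0.814). Of the 7 vesicle membrane genes tested 0 passed. Scamp1, a secretory carrier membrane protein, had 11884 ± 604 in knockout and 9931 ± 1072 in wild-type glands (SD, n = 3) without overlap (log2 change 0.26, adjusted p = 0.492). Syn2, a synapsin that tethers vesicles, Syngr1, a synaptogyrin, and Sypl, a relative of synaptophysin, had log2 changes of 0.36, 0.23 and -0.27. Synaptophysin itself, Syp, was dim, with 724, 634 and 642 in knockout and 815, 303 and 352 in wild-type glands.

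The genes with the most similar profile over the 6 arrays were found from the root mean square difference of mean-centred log2 signals, among 5662 other named genes. Vamp2 lay nearest to the transcription factor gene Gata2, at a difference of 0.058 on the log2 scale, where the profile of Vamp2 itself varied by 0.31. Snap25 lay nearest to Ifrd1, at 0.085 against its own 0.396. Dnajc5 lay nearest to the splicing factor gene Srsf1, at 0.083 against its own 0.595, and Srsf1 had a log2 change of -1.16. Syt11 lay nearest to Neo1, at 0.098, and Nsf to 1810009A15Rik, at 0.078. For Cadps, 92988_i_at lay nearest to Csf3r, at 0.048, and 92989_f_at to Tbc1d20, at 0.060. These are descriptions over 6 arrays that share 2 genotypes and 2 arrays with a high Gapdh ratio.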

How the data were processed

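RNA from 3 knockout and 3 wild-type adrenal glands was hybridised to Affymetrix arrays, 1 gland sample per array. The deposited values are linear intensities per probe set. The submitters' processing notes name MAS5 as the authors' tool, and no source used here states its version or target. The mean after trimming 2% at each end was 2501 on every array, so the values were not scaled again. Of 12488 probe sets, 66 controls were left out, and 10833 of the rest had 1 symbol, updated through the Entrez identifier with RefSeq names. Values were taken as log2(signal + 16), which understates changes of dim genes. Probe sets under the 40th percentile of mean log2 signal were left out, and the genotypes were tested in R 4.3.3 by limma 3.58.1 (eBayes with trend), with Benjamini-Hochberg adjustment over all 7453 probe sets. The code was tested on simulated data. The array number limits precision. Each p-value weighs the difference between group means against the spread within groups of these samples, moderated over probe sets.

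The members, lists and alternatives were chosen with earlier results of these data known. Named were all member probe sets, the up to 4 genes of smallest p in each of 4 groups of other exocytosis genes, the nearest profiles, and the cell markers beside a result. Syp, Napa and Napb were named after their values were seen. Marker sums use each gene's brightest probe set. Markers of Schwann cells, macrophages, adipocytes and liver were summed in the same way.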

Additional observations from a re-analysis of the deposited data

How the results depend on the processing

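Over all probe sets, 33 passed. The count was 17 without the intensity trend, 12 when adjusted for the Gapdh 3' to 5' ratio, 13 with knockout array 1 as the sole knockout array, and 15 to 141 when an array was left out. Leaving out knockout array 1 gave 141, knockout array 3 15, wild-type array 2 17 and wild-type array 3 19. For the member probe sets and for the other exocytosis genes the count was 0 in every setting run, except 1 each (Dnajc5 and Vamp3) without knockout array 1, so that leaving out an array gave 0 to 1. With the replicate number as a block the count over all probe sets was 57 and that of the members 0. The numbers share no stated animal, and deviations of same-numbered arrays correlated across probe sets at 0.255, -0.035 and -0.039, with 1 of 3 knockout arrays correlating best with its own number. Signs that turned were all on values short of the threshold. Adjusted for the Gapdh ratio and with the sole knockout array 1, in that order, the log2 change was 0.75 and 0.61 for Syt11, 0.23 and 0.089 for Vamp3, 0.23 and 0.061 for Ykt6, 0.45 and 0.25 for Rab3a and 0.022 and 0.0031 for Snapin. Adjusted for the ratio it was -0.28 for Cplx1 and 0.014 for Rab3d. When an array was left out it ranged from -0.14 to 0.23 for Cadps 92988_i_at, -0.015 to 0.33 for Cadps 92989_f_at, -0.54 to 0.053 for Syt11 and -0.23 to 0.035 for Snapin. The cause was not tested. Adjustment for the ratio cannot separate it from genotype, since it was higher on every knockout array than on every wild-type array. Vamp2 98926_at and Snap25 100047_at had higher values in every setting in which they were tested, while Vamp2 98925_at, tested only without the filter on low signals, had a log2 change of -0.11 there. Stx1a, Syt1, Syt4 and Vamp2 98925_at had mean signals under the filter, and no measure of background was used.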
